A study of Mus musculus with 11 samples.

Results

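The 52 genes described here encode the proteins that carry a cell through mitosis: the kinases and cyclins of mitotic entry, the chromosomal passenger complex, the spindle checkpoint, the anaphase machinery, the kinetochore, the spindle and cleavage apparatus, and the proteins that compact chromosomes. They were chosen by symbol, from a list of known mitotic genes, with earlier results of these data known. All 52 were found among the 37991 genes of the deposited expression table. In a dividing cell the messages of many such genes accumulate late in the cycle and fall when cells leave it. The kinetochore is built in layers on the centromere, with the histone variant CENP-A and its constitutive partners inside and the microtubule-binding NDC80 complex outside. The spindle checkpoint holds the anaphase-promoting complex inactive until every kinetochore is attached, after which securin is destroyed and separase opens the cohesin rings.

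RNA was sequenced from cultures of neural stem cells taken from the frontal cortex of C57BL/6J mouse embryos at E14.5 (embryonic day), and the labels give no genetic change in any group. The NSC group (3 libraries) was sampled at day 0 out of a proliferation medium. The day 4 groups had spent 4 days in a differentiation medium: Astrocyte (3 libraries; DMEM with N-2 supplement at 1% and fetal bovine serum at 1%), Neuron (3 libraries; Neurobasal with B-27 supplement at 2%) and Oligodendrocyte (2 libraries; the Neuron medium plus the thyroid hormone T3 at 30 ng/mL). A group name stands for the medium and not for the cells present. In the Neuron libraries 8 astrocyte marker genes summed to 8989 to 9828 CPM (read counts brought to a fixed library total), against 1594 to 1662 CPM in NSC. The 7 neuron marker genes found summed to 144 to 227 CPM in the Neuron libraries, against 13.8 to 15.6 CPM in NSC. Most of that Neuron sum was Dcx, at a mean of 148 CPM, while Neurod1 and Stmn2 were below 1 CPM. No library was taken at day 4 from the proliferation medium, so time in culture and change of medium cannot be told apart. Nothing in the labels says that replicates were separate cultures, and p-values measure the spread between these libraries, which may be technical. Because whole cultures were sequenced, fewer dividing cells and less mitotic RNA per cell cannot be told apart either.

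Many genes of late mitosis carry a pair of promoter elements known from textbooks: the CCAAT box bound by NF-Y, and the cell cycle genes homology region, through which the DREAM complex keeps them silent in resting cells and MYBL2 and FOXM1 with the MuvB core raise them before division. Promoter windows from RefSeq (assembly GRCm38.p6, 250 bases before to 50 after an annotated start) were found for 44 of the 52 genes, in 49 windows. Both strands were searched for the homology region as TTTGAA or TTCGAA and for the NF-Y box as CCAAT, and matches of the 2 kinds can share an end base. The 4 genes shown first held both elements and had the highest NSC levels of those that did. The fifth, Pttg1, held neither in its window. It was chosen after its values had been seen, because it is the single gene of the 52 that was higher at day 4. The Pttg1 window follows the RefSeq start, and whether this start is the 5′ end of the gene was not tested. Each stretch runs 5′ to 3′ on the minus strand, from 200 bases before the start to 30 after it, and capitals mark the elements on either strand (ATTGG is CCAAT, and TTCAAA is TTTGAA, read from the other strand).
Mki67, chr7:135716350-135716579: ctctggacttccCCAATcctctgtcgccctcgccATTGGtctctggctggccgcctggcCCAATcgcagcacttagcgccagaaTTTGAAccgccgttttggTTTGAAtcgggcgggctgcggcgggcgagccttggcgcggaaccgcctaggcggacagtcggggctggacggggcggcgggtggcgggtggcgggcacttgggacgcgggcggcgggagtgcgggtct
Top2a, chr11:99024160-99024389: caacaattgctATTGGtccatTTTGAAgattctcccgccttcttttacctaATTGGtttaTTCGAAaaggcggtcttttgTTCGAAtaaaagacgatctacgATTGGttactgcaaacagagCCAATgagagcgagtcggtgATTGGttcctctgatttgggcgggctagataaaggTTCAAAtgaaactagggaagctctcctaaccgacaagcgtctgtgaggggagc
Ncapd2, chr6:125191557-125191786: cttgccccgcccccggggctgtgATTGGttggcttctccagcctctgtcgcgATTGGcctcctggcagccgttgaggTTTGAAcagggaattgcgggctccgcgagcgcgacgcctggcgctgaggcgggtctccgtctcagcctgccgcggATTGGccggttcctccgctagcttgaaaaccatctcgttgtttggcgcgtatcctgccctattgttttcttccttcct
Cenpf, chr1:189688057-189688286: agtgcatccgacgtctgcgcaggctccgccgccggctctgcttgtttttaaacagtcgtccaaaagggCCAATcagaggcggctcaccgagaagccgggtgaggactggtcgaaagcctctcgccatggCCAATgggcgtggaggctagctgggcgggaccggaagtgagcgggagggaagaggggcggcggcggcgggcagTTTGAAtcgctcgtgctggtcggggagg
Pttg1, chr11:43425952-43426181: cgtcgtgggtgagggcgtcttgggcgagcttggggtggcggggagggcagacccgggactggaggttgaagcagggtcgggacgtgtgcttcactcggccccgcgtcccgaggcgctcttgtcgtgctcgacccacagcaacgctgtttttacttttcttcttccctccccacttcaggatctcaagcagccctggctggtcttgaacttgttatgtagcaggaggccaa

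The homology region was present in 29 of the 44 genes (65.9%), against 21.7% of the 27025 genes in the promoter table. Taken singly, TTTGAA was held by 26 genes (59.1%, against 20.2%) and TTCGAA by 5 (11.4%, against 1.8%). CCAAT was found in 33 genes (75%, against 41.1%). Both kinds of element stood together in 27 genes (61.4%, against 8.61%). The homology region lay between 50 bases before and 50 bases after the start in 25 genes (56.8%, against 6.12%), and CCAAT lay in the 100 bases before the start in 26 genes (59.1%, against 22.0%). Neither element was found in the windows of 9 genes, namely Nuf2, Nusap1, Ncaph, Mad2l1, Cenpt, Pttg1, Birc5, Cenpo and Cenpp. A match is a string of letters and was not tested as a binding site, and the absence of a match holds for these windows only.

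**Figure D1:**
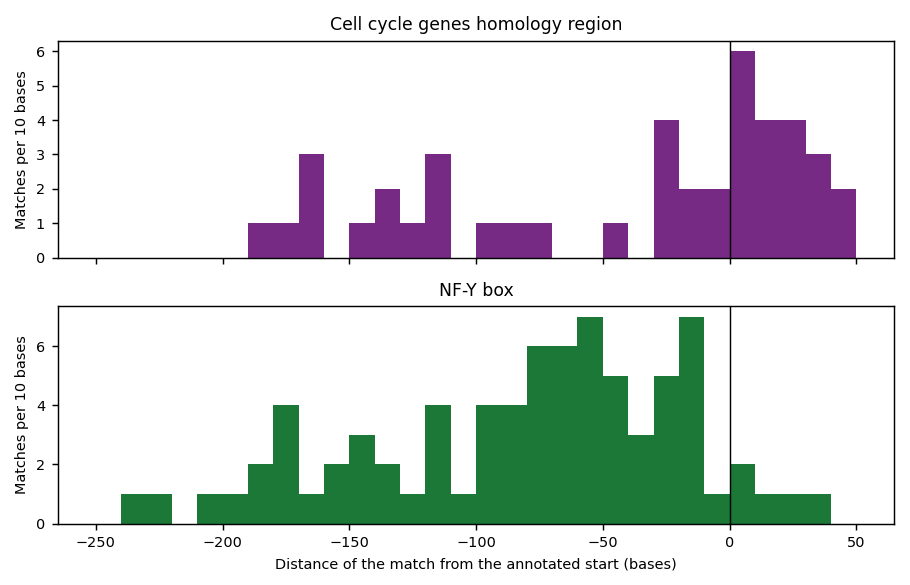
Number of matches per 10 bases (vertical axis) against distance from the annotated start in bases (horizontal axis), over the windows of the 44 matched genes, for the cell cycle genes homology region (top) and the NF-Y box (bottom); the vertical line is the start. The homology region is most frequent just after the start and CCAAT in the 100 bases before it.

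In every day 4 medium, 51 of the 52 genes were lower than in the neural stem cells, most of them by more than 10-fold, and 1 gene, Pttg1, was higher. The median gene retained 4.77% of its NSC level in the Astrocyte group, 3.87% in the Neuron group and 5.10% in the Oligodendrocyte group, taking the mean CPM at day 4 as a percent of the NSC mean. For the 11788 genes with an NSC mean of at least 1 CPM the same medians were 102%, 95.01% and 106%. Tests were run with limma on log2(CPM + 1) over the 13342 genes with at least 1 CPM in 2 or more libraries, with Benjamini-Hochberg adjustment, and all 52 genes passed that filter. A gene counted as called at an adjusted p under 0.05, and fold changes are given as differences on this log2 scale, which understates the change of genes near 1 CPM.

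All 52 genes were called in each of the 3 comparisons with NSC, but so were 83.6%, 83.1% and 80.2% of all genes tested in the Astrocyte, Neuron and Oligodendrocyte comparisons, so the direction and size carry the description. The 51 genes called lower stand beside 35.6%, 39.6% and 32.2% of all genes called lower. By at least 2-fold, 49 genes were lower in the Astrocyte group (12.3% of all genes), 49 in the Neuron group (13.8%) and 50 in the Oligodendrocyte group (10.7%). The 51 genes also showed no overlap between the NSC libraries and those of each day 4 group (36.9%, 39.7% and 36.5% of all genes in that direction). Median changes were -4.03, -4.26 and -4.04 for the 52 genes and 0.15, 0.06 and 0.19 for all genes. The 3 comparisons share the NSC libraries and are not independent of each other.

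For most genes little was left. In 37 of the 52 genes less than 10% of the NSC level was left in all 3 media, which held for 1.56% of the 11788 genes, and in 22 genes less than 5% was left (0.602%). All but 4 genes had less than 25% left in all 3 media (48 genes, against 4% of genes). The exceptions were Bub3, Cenpo, Cenpt and Pttg1. Between single libraries the median residual ran from 4.53% to 5.10% in the Astrocyte group, from 3.74% to 4.23% in the Neuron group and was 5.20% and 4.81% in the Oligodendrocyte group. Markers of cell identity moved in the same libraries. Of 8 progenitor markers, 4, 4 and 1 were called higher in the Astrocyte, Neuron and Oligodendrocyte groups (48%, 43.5% and 48.1% of all genes). Called lower were 4, 4 and 5 (35.6%, 39.6% and 32.2% of all genes). Prom1, with a mean of only 3.44 CPM in NSC, stood at 1223%, 323% and 729% of that level. Pax6 stood at 233%, 218% and 104% and Sox2 at 140%, 190% and 112%, while Nes kept 15.9%, 5.63% and 33.5%. The summed level of the 8 markers, most of it Vim, Fabp7 and Nes in NSC, was 5032 to 5508 CPM in NSC. It was 3852 to 4312 CPM in the Astrocyte, 2591 to 3273 CPM in the Neuron and 2807 to 2885 CPM in the Oligodendrocyte libraries. All 8 markers remained above 1 CPM. Their part in the fall of the mitotic genes was not tested.

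**Figure D2:**
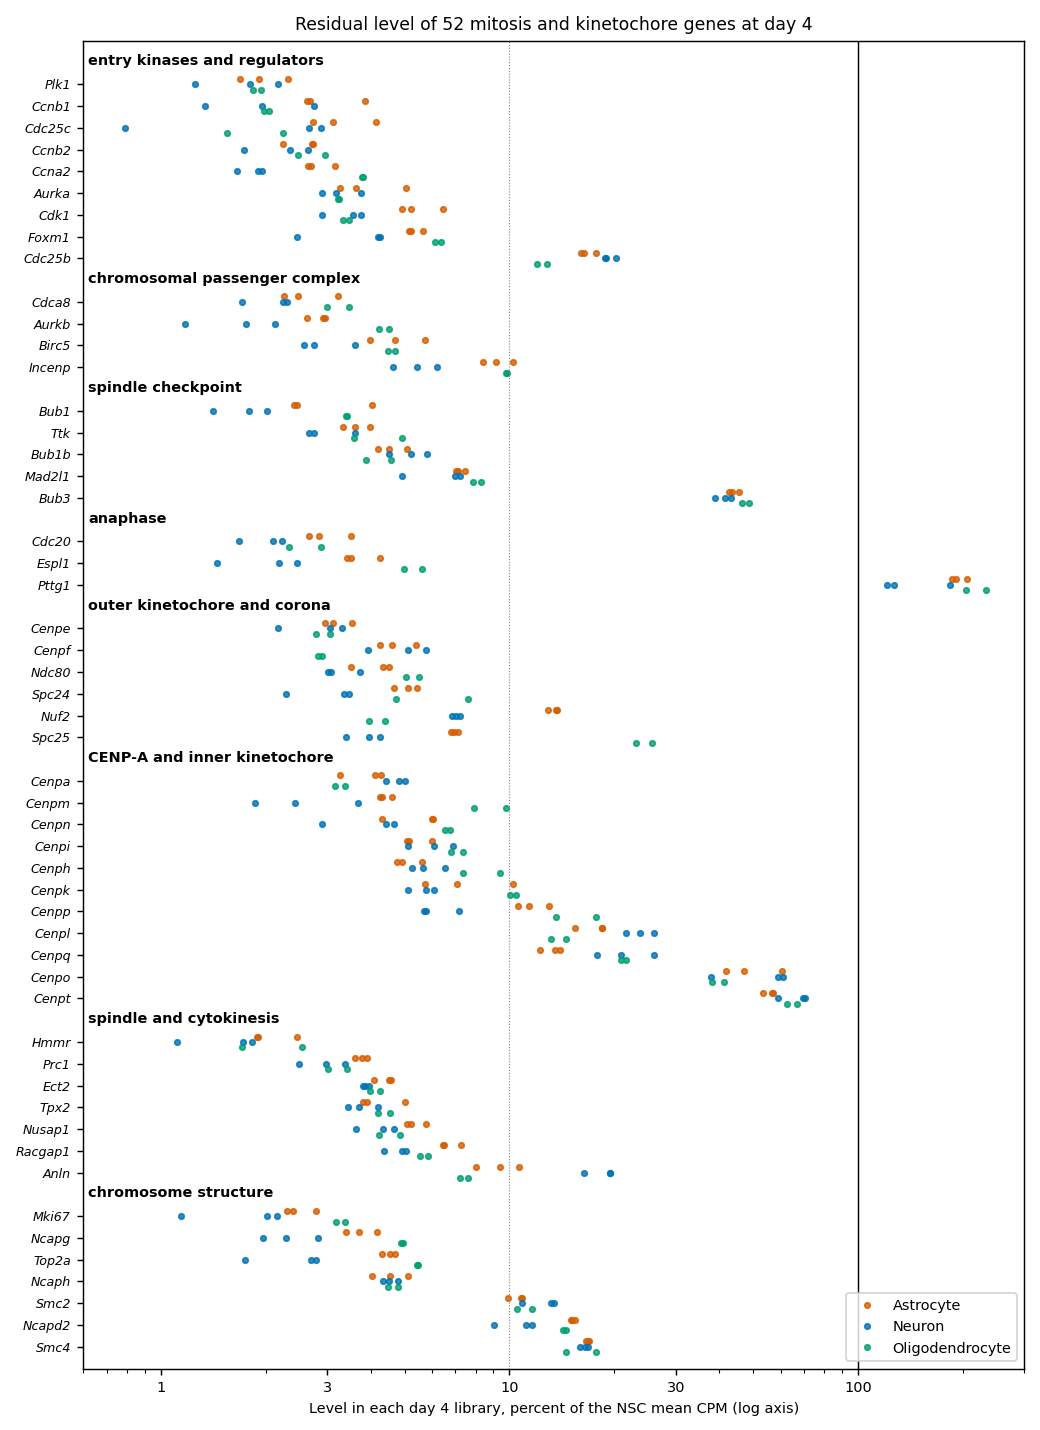
Each point is 1 day 4 library, placed by its CPM as a percent of the NSC mean (horizontal, log axis) for each of the 52 genes grouped by role, with color for the medium. Most genes lie to the left of the dotted line at 10%, Bub3, Cenpo and Cenpt lie between 37.9% and 70.6%, and Pttg1 lies to the right of the line at 100%.

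The genes of mitotic entry fell to small remainders. Median residuals over the 9 genes were 3.33% in the Astrocyte, 2.24% in the Neuron and 3.23% in the Oligodendrocyte group. Plk1, the polo-like kinase that drives centrosome maturation and spindle assembly, stood at 110.0, 108 and 119 CPM in the NSC libraries, 2.15, 1.9 and 2.6 in Astrocyte, 2.03, 1.41 and 2.43 in Neuron and 2.18 and 2.07 in Oligodendrocyte libraries. All 8 day 4 libraries lay far below the lowest NSC library and overlapped with each other across media. On the log2 scale Plk1 (ENSMUSG00000030867, chr7:129302951-129313389, in build NCBIM37 like all gene coordinates here) changed by -5.14, -5.27 and -5.18 (SE 0.12 to 0.13, adjusted p at most 7.23e-13) in the Astrocyte, Neuron and Oligodendrocyte groups.

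Ccna2 encodes cyclin A2, which pairs with CDK2 in S phase and CDK1 on the way into mitosis, and had the highest NSC level per kb of exon in this role. It measured 324, 324 and 338 CPM in NSC, 8.86, 8.69 and 10.3 in Astrocyte, 6.25, 5.43 and 6.41 in Neuron and 12.5 and 12.4 in Oligodendrocyte libraries. The 3 media did not overlap, with Neuron lowest and Oligodendrocyte highest. Separation of media was common, here and for the genes below. Of all genes tested, 41.2% were higher and 21.8% lower in Astrocyte than in Neuron without overlap. The shares were 49% and 26.7% for Oligodendrocyte against Neuron and 39.6% and 32.1% for Oligodendrocyte against Astrocyte. Ccna2 (ENSMUSG00000027715, chr3:36463788-36471072) changed by -5.00, -5.55 and -4.62 (SE 0.077 to 0.086, adjusted p at most 6.42e-14) in the Astrocyte, Neuron and Oligodendrocyte groups. It overlaps Exosc9 on the other strand, and the sources used here do not say whether counting used the strand.

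Cdc25b, a phosphatase that removes the inhibitory phosphates from CDK1, retained most in this role. Its values were 46.7, 49.1 and 53.5 CPM in NSC, 8.84, 8.15 and 7.98 in Astrocyte, 10.1, 9.37 and 9.39 in Neuron and 5.98 and 6.36 in Oligodendrocyte libraries. No 2 groups overlapped, and the Oligodendrocyte libraries were lowest. Cdc25b (ENSMUSG00000027330, chr2:131012685-131024233) changed by -2.44, -2.26 and -2.82 (SE 0.075 to 0.084, adjusted p at most 4.48e-12) in the 3 media. Its paralog Cdc25c had 3.33%, 2.11% and 1.89% of the NSC level left. The cyclin B genes also fell to small remainders, Ccnb1 (3.06%, 2.02% and 2.01%) and Ccnb2 (2.56%, 2.24% and 2.72%), as did their partner kinase Cdk1 (5.53%, 3.41% and 3.4%). Aurka, the centrosomal Aurora kinase, kept 3.99%, 3.27% and 3.23%. Foxm1, a transcription factor of the late cycle program, kept 5.34%, 3.64% and 6.24%.

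The 4 subunits of the chromosomal passenger complex, which corrects wrong attachments and later steers cleavage, fell together. Medians were 3.82%, 2.53% and 4.48% of the NSC level in the Astrocyte, Neuron and Oligodendrocyte groups. Cdca8, encoding borealin, had the lowest residual averaged over the 3 media (2.66%), falling from 98.2, 99.6 and 112 CPM in NSC to 2.56, 2.33 and 3.34 in Astrocyte, 2.31, 1.77 and 2.38 in Neuron and 3.1 and 3.57 in Oligodendrocyte libraries. The media overlapped in part, and all were far below NSC. Incenp, the scaffold that activates Aurora B, had 124, 126 and 132 CPM in NSC, 13.1, 10.7 and 11.7 in Astrocyte, 6.92, 5.92 and 7.91 in Neuron and 12.4 and 12.5 in Oligodendrocyte libraries. Here the Neuron libraries lay below both other media without overlap. Changes against NSC in the 3 media were -4.81, -5.05 and -4.59 (SE 0.11 to 0.13, adjusted p at most 1.08e-12) for Cdca8 (ENSMUSG00000028873, chr4:124595709-124616555) and -3.33, -4.03 and -3.25 (SE 0.093 to 0.1, adjusted p at most 4.12e-12) for Incenp (ENSMUSG00000024660, chr19:9946787-9974023). The catalytic subunit Aurkb kept 2.84%, 1.68% and 4.37% and survivin (Birc5) 4.8%, 2.97% and 4.59%.

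The spindle checkpoint split into 4 genes that fell to a few percent and 1 that did not. Bub1, a kinase that recruits the checkpoint proteins to unattached kinetochores, measured 92.7, 93.1 and 93.2 CPM in NSC, 2.24, 2.28 and 3.76 in Astrocyte, 1.66, 1.31 and 1.87 in Neuron and 3.19 and 3.16 in Oligodendrocyte libraries. Bub1b, encoding BUBR1 of the mitotic checkpoint complex, measured 120.4, 124 and 129 CPM in NSC, 6.31, 5.61 and 5.23 in Astrocyte, 7.2, 5.6 and 6.51 in Neuron and 5.67 and 4.81 in Oligodendrocyte libraries. For Bub1 the Neuron libraries were lowest without overlap, whereas for Bub1b the media overlapped. The changes from NSC were -4.67, -5.17 and -4.49 (SE 0.13 to 0.15, adjusted p at most 5.2e-12) for Bub1 (ENSMUSG00000027379, chr2:127626858-127657601) and -4.22, -4.08 and -4.33 (SE 0.094 to 0.11, adjusted p at most 3.97e-13) for Bub1b (ENSMUSG00000040084, chr2:118423947-118467328). Ttk, the kinase MPS1, kept 3.64%, 3% and 4.25%, and Mad2l1, which binds and blocks CDC20, kept 7.2%, 6.36% and 8.08%.

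Bub3, whose WD40 protein carries BUB1 and BUBR1 to the kinetochore, was the exception. Its values were 94.9, 89.9 and 101 CPM in NSC, 40.6, 41.4 and 43.6 in Astrocyte, 37.1, 41.3 and 39.6 in Neuron and 44.3 and 46.4 in Oligodendrocyte libraries. Every day 4 library was below every NSC library, yet 43.9%, 41.2% and 47.5% of the NSC level remained. Bub3 (ENSMUSG00000066979, chr7:138703905-138715412) changed by -1.17, -1.26 and -1.06 (SE 0.064 to 0.072, adjusted p at most 9.42e-09) in the 3 media. Its promoter windows held both TTTGAA and CCAAT, and a link between these elements and the level left was not tested. The mean of Fgfr2, which overlaps Bub3 on the other strand, went from 11.5 CPM in NSC to 86.3, 61.8 and 89.1 CPM in the Astrocyte, Neuron and Oligodendrocyte groups, and its part in the Bub3 values was not tested.

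The 3 anaphase genes went in opposite directions. Cdc20, the activator that turns the anaphase-promoting complex on securin and cyclin B, had 112, 109.9 and 127 CPM in NSC, 3.31, 3.1 and 4.1 in Astrocyte, 2.44, 1.95 and 2.6 in Neuron and 2.71 and 3.36 in Oligodendrocyte libraries. No day 4 library exceeded 4.10 CPM, and Cdc20 (ENSMUSG00000006398, chr4:118105506-118109957) changed by -4.71, -5.14 and -4.87 (SE 0.11 to 0.12, adjusted p at most 5.6e-13). Espl1, encoding separase, kept 3.72%, 2.03% and 5.29% of its NSC level. Pttg1, encoding the securin that holds separase in check, instead had 8.1, 7.67 and 9.37 CPM in NSC, 16, 15.6 and 17.2 in Astrocyte, 10.1, 15.4 and 10.6 in Neuron and 19.5 and 17.1 in Oligodendrocyte libraries. The libraries of each day 4 group lay above all NSC libraries, as they did for 49.3%, 43.4% and 52.8% of all genes in the Astrocyte, Neuron and Oligodendrocyte groups. The Neuron libraries spread widest, with replicate 2 near the Astrocyte level and the other 2 just above NSC.

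Pttg1 (ENSMUSG00000020415, chr11:43233752-43239753) rose by 0.88 (SE 0.13, adjusted p = 2.22e-05) in the Astrocyte, rose by 0.46 (SE 0.13, adjusted p = 0.00476) in the Neuron and rose by 1.04 (SE 0.14, adjusted p = 1.47e-05) in the Oligodendrocyte group. Among all genes tested 48%, 43.5% and 48.1% were called higher in these comparisons, so a rise of this kind was common outside the mitotic genes. The change reached 2-fold in the Oligodendrocyte group alone (21.2% of all genes were higher by that much) and did so by a narrow margin: without NSC replicate 2 or Oligodendrocyte replicate 1, with a pseudocount of 5, or with median-of-ratios or quantile scaling, it was below 2-fold. Over all alternatives the change stayed above 0 and called, from 0.59 to 0.96, from 0.28 to 0.56 and from 0.74 to 1.13 in the 3 media. At day 4 Pttg1 was at 8.12, 6.03 and 9.14 CPM per kb of exon in the 3 media, second only to Smc4 among the 52 genes, whereas in NSC, at 4.19 CPM per kb, it was far below the 84.0, 81.1 and 80.5 CPM per kb of Mki67, Top2a and Ccna2. In NSC it averaged 8.38 ± 0.884 CPM (SD, n = 3), and per kb of exon Cenpo, Cenpl and Cenpk, at 1.19, 3.82 and 3.84, were lower.

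**Figure D3:**
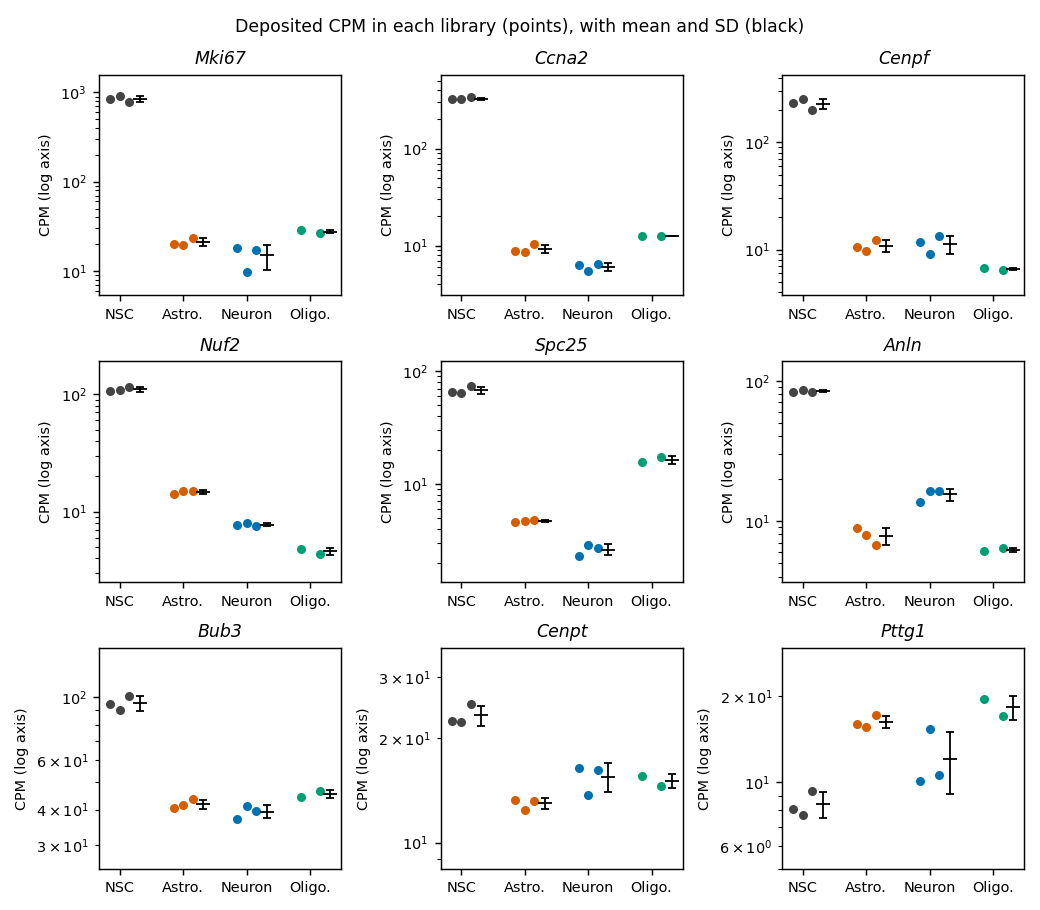
Deposited CPM (vertical, log axis, a separate range in each panel) of 9 genes in each library, with the group mean and SD as black bars; n = 3 for NSC, Astrocyte and Neuron and n = 2 for Oligodendrocyte. Mki67, Ccna2 and Cenpf fall steeply in each medium, Nuf2, Spc25 and Anln separate the media, Bub3 and Cenpt keep 41.2% to 66.3% of their NSC level and Pttg1 rises.

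The outer kinetochore and corona genes had medians of 4.91%, 3.57% and 4.72% of the NSC level. Cenpf, a large corona protein that binds dynein regulators and whose promoter window holds 1 TTTGAA and 2 CCAAT matches, had 234, 253 and 202 CPM in NSC, 10.6, 9.78 and 12.4 in Astrocyte, 11.8, 9.01 and 13.3 in Neuron and 6.67 and 6.5 in Oligodendrocyte libraries. Cenpe, the kinesin that moves chromosomes to the spindle equator, had 167, 175 and 149.8 CPM in NSC, 4.84, 5.12 and 5.81 in Astrocyte, 5.44, 3.55 and 5.01 in Neuron and 5.02 and 4.56 in Oligodendrocyte libraries. For Cenpf the Oligodendrocyte libraries were lowest without overlap, and for Cenpe the media overlapped. Against NSC the changes were -4.28, -4.23 and -4.92 (SE 0.12 to 0.14, adjusted p at most 1.42e-12) for Cenpf (ENSMUSG00000026605, chr1:191464478-191511965) and -4.72, -4.88 and -4.83 (SE 0.12 to 0.13, adjusted p at most 1.05e-12) for Cenpe (ENSMUSG00000045328, chr3:134875527-134936504).

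The 4 subunits of the NDC80 complex did not keep equal remainders, although they form a single rod in the cell. Ndc80 kept 4.12%, 3.27% and 5.27% and Spc24 5.07%, 3.03% and 6.17% in the Astrocyte, Neuron and Oligodendrocyte groups. Nuf2, the partner of Ndc80 in the microtubule-binding end, measured 107, 108 and 115 CPM in NSC, 14.2, 15 and 14.9 in Astrocyte, 7.73, 7.94 and 7.5 in Neuron and 4.83 and 4.34 in Oligodendrocyte libraries. Spc25, the partner of Spc24 in the centromere-facing end, measured 65.2, 64.1 and 73.4 CPM in NSC, 4.6, 4.67 and 4.81 in Astrocyte, 2.29, 2.87 and 2.67 in Neuron and 15.5 and 17.4 in Oligodendrocyte libraries. The media were fully separate for both genes, in opposite order at the ends: the Oligodendrocyte libraries were lowest for Nuf2 and highest for Spc25. Changes from NSC were -2.82, -3.67 and -4.31 (SE 0.067 to 0.075, adjusted p at most 1.64e-13) for Nuf2 (ENSMUSG00000026683, chr1:171428065-171461595) and -3.59, -4.25 and -1.97 (SE 0.085 to 0.095, adjusted p at most 2.52e-10) for Spc25 (ENSMUSG00000005233, chr2:69031952-69044251). No other listed gene within 40 kb of Spc25 had a group mean above 0.1 CPM.

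The inner kinetochore genes had the highest median remainder of the 8 roles, at 7.69%, 6.04% and 10.3% of the NSC level, and spanned the widest range among genes called lower. Cenpa, the histone H3 variant that marks the centromere, measured 80.9, 78.1 and 85.1 CPM in NSC, 3.34, 2.66 and 3.48 in Astrocyte, 3.92, 3.59 and 4.07 in Neuron and 2.57 and 2.75 in Oligodendrocyte libraries. Its Neuron libraries were highest of the 3 media and did not overlap the others. Cenpt, which links the centromere to NDC80, measured 22.5, 22.3 and 25.1 CPM in NSC, 13.3, 12.4 and 13.2 in Astrocyte, 16.5, 13.7 and 16.2 in Neuron and 15.6 and 14.6 in Oligodendrocyte libraries. All day 4 libraries were below NSC, and more than 50% of the NSC level was left in each. The changes were -4.31, -4.08 and -4.49 (SE 0.089 to 0.099, adjusted p at most 1.97e-13) for Cenpa (ENSMUSG00000029177, chr5:30969150-30977200) and -0.80, -0.56 and -0.60 (SE 0.082 to 0.091, adjusted p at most 3.95e-05) for Cenpt (ENSMUSG00000036672, chr8:108368578-108375908).

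Among the other constitutive subunits, Cenpo kept 49.7%, 52.6% and 39.7%, Cenpl 17.5%, 23.7% and 13.8%, Cenpq 13.2%, 21.6% and 21.2% and Cenpp 11.7%, 6.2% and 15.7% in the Astrocyte, Neuron and Oligodendrocyte groups. Lower remainders were measured for Cenpk (7.69%, 5.66% and 10.3%), Cenph (5.1%, 5.81% and 8.38%), Cenpi (5.43%, 6.04% and 7.1%), Cenpn (5.45%, 4% and 6.63%) and Cenpm (4.38%, 2.66% and 8.85%). Subunits of one subcomplex thus differed: Cenpo, Cenpp and Cenpq belong with each other, as do Cenpl and Cenpn. Cenpp and Cenpo overlap other expressed genes on the opposite strand. For Cenpp these include Ogn, whose mean went from 0.48 CPM in NSC to 90.6, 9.86 and 42.4 CPM in the 3 media. The part of such overlaps in the values was not tested.

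Of the 7 spindle and cytokinesis genes, 6 had less than 10% left in each medium, and the medians were 4.40%, 3.87% and 4.38%. Tpx2, which activates Aurora A on spindle microtubules, measured 225, 226 and 238 CPM in NSC, 8.95, 8.74 and 11.5 in Astrocyte, 8.52, 7.89 and 9.65 in Neuron and 9.66 and 10.5 in Oligodendrocyte libraries. Hmmr, a spindle pole protein and hyaluronan receptor, measured 142, 145 and 152 CPM in NSC, 2.76, 2.77 and 3.6 in Astrocyte, 2.52, 1.63 and 2.67 in Neuron and 2.49 and 3.72 in Oligodendrocyte libraries. For both genes no difference between media was called, and Hmmr had the lowest residual of all 52 genes in the Neuron group. The changes were -4.44, -4.58 and -4.38 (SE 0.097 to 0.11, adjusted p at most 4.69e-13) for Tpx2 (ENSMUSG00000027469, chr2:152673700-152721057) and -5.19, -5.50 and -5.18 (SE 0.14 to 0.16, adjusted p at most 2.31e-12) for Hmmr (ENSMUSG00000020330, chr11:40514890-40546939).

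Anln, encoding the actin-binding cleavage furrow protein anillin, kept most in this role. It had 83.1, 85.9 and 83.2 CPM in NSC, 8.95, 7.89 and 6.75 in Astrocyte, 13.7, 16.3 and 16.4 in Neuron and 6.06 and 6.39 in Oligodendrocyte libraries. Each Neuron library exceeded every library of the other media. Anln (ENSMUSG00000036777, chr9:22135658-22193650) changed by -3.27, -2.37 and -3.56 (SE 0.094 to 0.1, adjusted p at most 2.66e-11) in the 3 media. Prc1, which bundles the central spindle, kept 3.76%, 2.95% and 3.21%, and Nusap1, which binds spindle microtubules near chromosomes, kept 5.36%, 4.21% and 4.54%. The centralspindlin subunit Racgap1 kept 6.73%, 4.77% and 5.7%, and its partner Ect2, the exchange factor for RhoA, kept 4.4%, 3.87% and 4.11%. Anln is also expressed by myelinating oligodendrocytes, and 6 markers of mature oligodendrocytes summed to 67.9 to 75.7 CPM in NSC, 407 to 518 in Astrocyte, 2505 to 2680 in Neuron and 2406 to 2755 CPM in Oligodendrocyte libraries, whose part in the Anln values was not tested.

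The genes of chromosome structure included the highest NSC levels of the set per kb of exon, those of Mki67 and Top2a. Mki67, encoding the surfactant-like chromosome coat protein Ki-67, measured 849, 902 and 784 CPM in NSC, 20.2, 19.4 and 23.5 in Astrocyte, 18.2, 9.63 and 17.1 in Neuron and 28.5 and 26.8 in Oligodendrocyte libraries. Top2a, the topoisomerase that untangles sister chromatids, measured 721, 751 and 721 CPM in NSC, 31.5, 33.2 and 34.3 in Astrocyte, 19.7, 12.8 and 20.4 in Neuron and 39.7 and 39.9 in Oligodendrocyte libraries. The Mki67 promoter window holds 2 TTTGAA and 3 CCAAT matches, and that of Top2a 2 TTTGAA, 2 TTCGAA and 6 CCAAT matches. In both genes the order was Oligodendrocyte above Astrocyte above Neuron without overlap, and Neuron replicate 2 was the lowest library. Changes from NSC were -5.26, -5.77 and -4.88 (SE 0.17 to 0.19, adjusted p at most 2.49e-11) for Mki67 (ENSMUSG00000031004, chr7:142881471-142908062) and -4.43, -5.32 and -4.16 (SE 0.13 to 0.14, adjusted p at most 6.69e-12) for Top2a (ENSMUSG00000020914, chr11:98854257-98885503).

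The condensin genes divided by subunit. Smc4, an ATPase shared by both condensin complexes, measured 307, 312 and 299.6 CPM in NSC, 51.4, 50.7 and 51.7 in Astrocyte, 50.4, 48.9 and 51.4 in Neuron and 54.4 and 44.6 in Oligodendrocyte libraries. The media overlapped, and Smc4 (ENSMUSG00000034349, chr3:68808660-68838545) changed by -2.55, -2.58 and -2.61 (SE 0.067 to 0.075, adjusted p at most 1.51e-12). Per kb of exon it was the most abundant of the 52 genes at day 4, at 9.84, 9.63 and 9.50 CPM per kb. Its partner Smc2 kept 10.5%, 12.5% and 11%. The condensin I subunits were unequal, with 15.2%, 10.6% and 14.4% left of Ncapd2, 3.75%, 2.36% and 4.92% of Ncapg and 4.57%, 4.55% and 4.65% of Ncaph.

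What little remained differed between media. Between Astrocyte and Neuron, 31 of the 52 genes were called (62.2% of all genes tested), 24 higher in Astrocyte (40.3%) and 7 lower (22%), with none of them past 2-fold (6.39% of all genes were higher and 2.95% lower by that much). Between Oligodendrocyte and Neuron, 32 genes were called (67.5%), 25 higher in Oligodendrocyte (43.9%) and 7 lower (23.6%). Between Oligodendrocyte and Astrocyte, 17 genes were called (52.2%), 9 higher (28.7%) and 8 lower (23.5%). In none of the 3 comparisons was a larger share of the 52 genes called than of all genes tested. The medians for the 52 genes were 0.26, 0.22 and 0.06, and for all genes 0.11, 0.15 and 0.04. Without overlap, 24 of the 52 genes were higher and 7 lower in Astrocyte than in Neuron (41.2% and 21.8% of all genes). In Oligodendrocyte, 27 were higher and 6 lower than in Neuron (49% and 26.7%). Against Astrocyte, 18 were higher and 14 lower in Oligodendrocyte (39.6% and 32.1%).

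The tilt of calls toward higher values in Astrocyte and Oligodendrocyte than in Neuron was also seen among all genes tested, and depended on the scaling. Of all genes, 40.3% were called higher and 22% lower in Astrocyte than in Neuron, and 43.9% and 23.6% in Oligodendrocyte than in Neuron. Splits of all genes under the other scalings are not given here. For Astrocyte against Neuron the split of 24 higher and 7 lower (77.4% higher) became 22 and 8 with median-of-ratios scaling and 14 and 11 (56% higher) with quantile normalization. For Oligodendrocyte against Neuron 25 and 7 (78.1% higher) became 20 and 10 (66.7%) and 18 and 12 (60%). Neuron replicate 2 was the lowest of the Neuron libraries for 37 of the 52 genes, against 49.6% of all genes tested. The Neuron group had the lowest mean of the 3 media for 34 genes (48.6% of all genes) and Oligodendrocyte the highest for 27 (43.3%). Counts between Oligodendrocyte and Astrocyte were sensitive to single libraries, with 26 called (15 higher) without Neuron replicate 2 and 9 called (4 higher, 5 lower) without Oligodendrocyte replicate 1, and 4 called lower without NSC replicate 1 or Oligodendrocyte replicate 2. For Astrocyte against Neuron the 7 lower calls became 4 without Astrocyte replicate 2 and 3 without Neuron replicate 1 or 3.

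Past 2-fold, 2 genes were higher in Oligodendrocyte than in Neuron (8.96% of all genes), Spc25 and Top2a, and 1 was lower (3.58%), Anln. Spc25 was higher by 2.27 (SE 0.095, adjusted p = 4.17e-10), Top2a by 1.16 (SE 0.14, adjusted p = 7.82e-06), and the Anln change was -1.19 (SE 0.1, adjusted p = 4.3e-07). The number higher by 2-fold was 1 without Neuron replicate 2 and 4 without Neuron replicate 1 or 3. Against Astrocyte, 1 gene was higher by 2-fold (4.53%), again Spc25, at 1.61 (SE 0.095, adjusted p = 1.9e-08), and 1 was lower (3.41%), Nuf2, at -1.49 (SE 0.075, adjusted p = 4.36e-09). These differences compare media at a single day, and the T3 in the Oligodendrocyte medium is the labelled difference from the Neuron medium.

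Smaller differences followed no single role. Higher in Oligodendrocyte than in Neuron were Ccna2 by 0.94 (SE 0.086, adjusted p = 6.38e-07), Espl1 by 0.92 (SE 0.12, adjusted p = 1.6e-05), Aurkb by 0.91 (SE 0.12, adjusted p = 1.45e-05) and Mki67 by 0.89 (SE 0.19, adjusted p = 0.000919). Lower there were Cenpf, at -0.69 (SE 0.14, adjusted p = 0.000694), Nuf2, at -0.64 (SE 0.075, adjusted p = 5.43e-06), and Cdc25b, at -0.57 (SE 0.084, adjusted p = 5.15e-05). Astrocyte exceeded Neuron in Top2a by 0.90 (SE 0.13, adjusted p = 3.32e-05), in Nuf2 by 0.85 (SE 0.067, adjusted p = 1.58e-07) and in Incenp by 0.70 (SE 0.093, adjusted p = 2.2e-05), and was lower in Anln, at -0.90 (SE 0.094, adjusted p = 2.32e-06). Cdk1 averaged 5.54 ± 0.156 CPM in the 2 Oligodendrocyte libraries (mean ± SD), 5.55 ± 0.73 CPM in the 3 Neuron libraries and 9.02 ± 1.32 CPM in the 3 Astrocyte libraries. The Astrocyte level exceeded that of Neuron by 0.61 (SE 0.1, adjusted p = 0.00017).

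**Figure D4:**
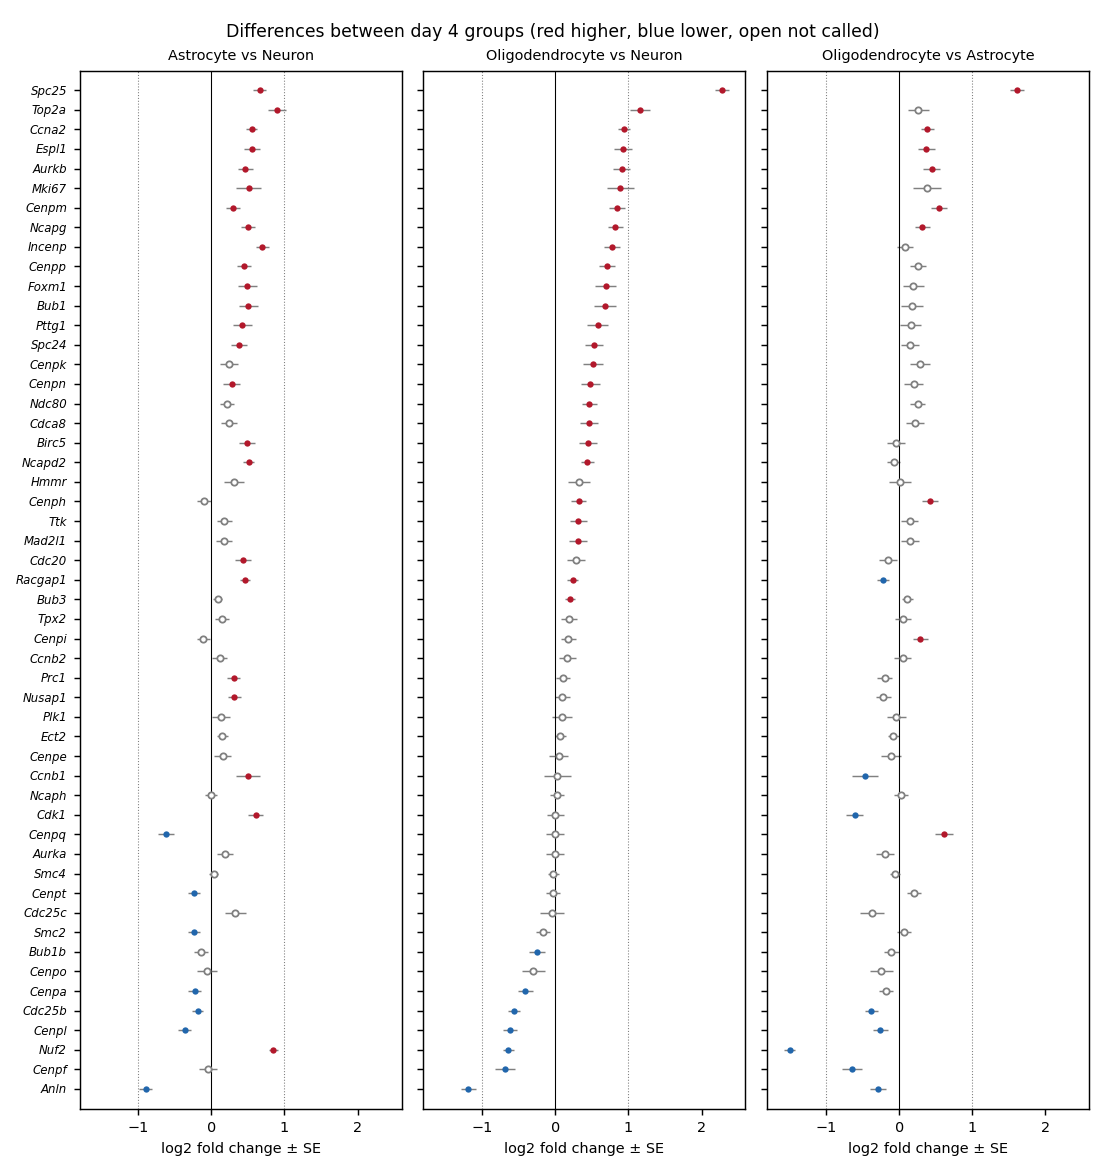
Difference between day 4 groups on the log2(CPM + 1) scale, with SE, for each of the 52 genes, in order of the Oligodendrocyte against Neuron difference; filled points are called, red higher and blue lower, and dotted lines mark 2-fold. Spc25 stands far to the right in both Oligodendrocyte panels, Nuf2 far to the left against Astrocyte, and most other genes lie within 1 of 0.

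Other genes of the same machinery showed which of its parts fell with the 52. Of 19 further kinetochore genes found, 19, 17 and 19 were called lower in the Astrocyte, Neuron and Oligodendrocyte groups, against 35.6%, 39.6% and 32.2% of all genes tested, with medians of -2.77, -2.78 and -2.49. Knl1, the outer scaffold for the checkpoint, kept 3.62%, 3.31% and 2.8%, and Ska1, a microtubule-tracking subunit, kept 3.29%, 2.18% and 5.24%. Zwint, which ties the outer scaffold to the RZZ complex, had 70.6%, 90.1% and 80.5% left and was not called in the Neuron group (limma, adjusted p = 0.0508). Cenpc1, encoding the CENP-C platform, kept 51%, 66.1% and 47.8%.

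Most genes of the anaphase-promoting complex changed by less than 2-fold, as did most genes tested. Of 19 genes of the complex and its partners, 4 were lower by 2-fold in each medium (12.3%, 13.8% and 10.7% of all genes). In all 13, 13 and 15 were called lower (35.6%, 39.6% and 32.2% of all genes) and 3, 2 and 2 higher (48%, 43.5% and 48.1%), with medians of -0.44, -0.53 and -0.34. The 4 were the ubiquitin-conjugating enzymes Ube2c (3.57%, 2.96% and 3.29% left) and Ube2s (22.8%, 27.2% and 32.2%), the inhibitor Fbxo5 (9.59%, 10.7% and 10.3%) and the checkpoint ATPase Trip13 (6.1%, 5.75% and 7.19%). The catalytic core subunit Anapc2 stood at 144%, 147% and 108% of its NSC level, and the subunits Cdc23 and Cdc27 of its substrate-binding arm kept 66.6%, 58.3% and 78.4% (Cdc23) and 61.7%, 54.5% and 78.8% (Cdc27).

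The cohesin genes were divided as well. Of 15 cohesin and shugoshin genes, 12 were called lower in each medium (35.6%, 39.6% and 32.2% of all genes). Called higher were 1, 2 and 1 (48%, 43.5% and 48.1%), and medians were -0.87, -0.81 and -0.91. By at least 2-fold, 7, 6 and 7 were lower (12.3%, 13.8% and 10.7% of all genes). Little was left of the acetyltransferase Esco2 (4.85%, 2.22% and 6.88%), of Cdca5, which encodes sororin (5.44%, 2.61% and 7.33%), and of the shugoshin Sgo1 (3.9%, 2.74% and 4.33%). More was left of the ring subunits Smc1a (38%, 42.5% and 30.1%), Rad21 (42.2%, 57% and 34%) and Smc3 (65.4%, 87.8% and 53.0%). All 3 condensin II genes were called lower, with medians of -1.98, -1.66 and -1.45, and Ncapg2 kept 13%, 10.4% and 14.4% and Ncaph2 55.3%, 46.4% and 61.9%.

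Of 11 mitotic kinases and antagonists tested, 10, 9 and 9 were called lower (35.6%, 39.6% and 32.2% of all genes) and 1, 0 and 1 higher (48%, 43.5% and 48.1%), with medians of -3.07, -3.48 and -2.94. Little was left of the kinases Nek2 (3.65%, 2.03% and 2.6%), Melk (3.05%, 1.88% and 4.75%) and Pbk (3.52%, 2.08% and 4.73%). The small phosphatase inhibitors Arpp19 (90.4%, 97.3% and 103%) and Ensa (121%, 91.4% and 122%) stood near their NSC level, while Mastl, the kinase that acts on them, kept 6.07%, 6.84% and 11%. Ccnb3 did not pass the filter on low values.

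Of 21 regulators of late cell cycle transcription, 17, 17 and 16 were called lower (35.6%, 39.6% and 32.2% of all genes) and 3 higher in each medium (48%, 43.5% and 48.1%), with medians of -1.03, -1.19 and -0.77. Mybl2, the activating partner of the MuvB core, kept 4.64%, 2.74% and 10.4%. The E2F genes spread widely. Little was left of the repressors E2f7 (4.63%, 1.32% and 6.59%) and E2f8 (5.61%, 7.56% and 9.76%) and the activators E2f2 (5.36%, 1.82% and 11.1%) and E2f1 (15.6%, 3.61% and 19%). More was left of E2f3 (45%, 40.7% and 61.5%), E2f4 (50.6%, 41.2% and 55.9%), E2f6 (71%, 67% and 84.4%) and E2f5 (84.3%, 79.8% and 88.1%). The 3 that rose were Lin52, a MuvB subunit, to 303%, 381% and 259% of its NSC level, and the pocket proteins Rbl2, to 222%, 227% and 179%, and Rb1, to 189%, 174% and 179%. Their changes were 1.53, 1.84 and 1.30 (SE 0.09 to 0.1, adjusted p at most 3.55e-08) for Lin52, 1.13, 1.16 and 0.82 (SE 0.07 to 0.078, adjusted p at most 3.36e-07) for Rbl2 and 0.91, 0.79 and 0.83 (SE 0.067 to 0.075, adjusted p at most 1.93e-07) for Rb1. Rbl1, the pocket protein p107, fell instead and kept 14.7%, 16.9% and 14.3%. The NF-Y subunits Nfya, Nfyb and Nfyc were called lower in each medium, with 48.2%, 57.4% and 57.9% of Nfya left.

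**Figure D5:**
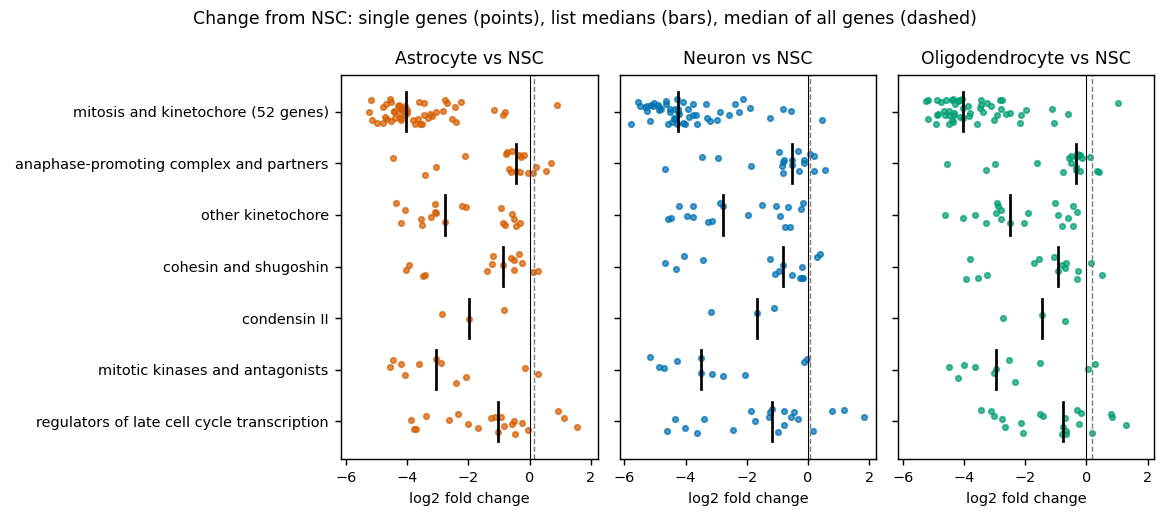
Change from NSC on the log2(CPM + 1) scale for single genes (points) of the 52 and of 6 further lists, in 3 panels, 1 for each medium; black bars are list medians, the solid line is 0 and the dashed line is the median of all genes tested. Medians of the 52 genes lie at -4.03, -4.26 and -4.04, and those of the anaphase-promoting complex and cohesin lists lie nearer to 0, with a few of their genes far to the left.

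Low CPM values lay on steps worth 0.0151 to 0.0203 CPM per read, which puts the totals behind the CPM at 49.3 to 66.2 M (mega) reads. The lowest day 4 value of the 52 genes, 0.26 CPM for Cdc25c in Neuron replicate 2, was about 14 reads, so no gene was at the floor of detection. Spread between libraries exceeded counting error: at the median over genes, the variance was 3.85 to 13.3 times the counting variance in the 4 groups. That median covered genes with a group mean of at least 10 CPM, the most abundant left out. Most of the 52 genes were below 10 CPM at day 4. Over the 52 genes the median coefficient of variation was 4.39% in NSC, 9.92% in Astrocyte, 14.7% in Neuron and 4.87% in Oligodendrocyte, the last from 2 libraries. Markers of microglia summed to at most 1.32 CPM, and of 6 mesenchymal and 6 endothelial markers only Pdgfrb and Kdr reached 1 CPM in any group. Pdgfrb went from 0.263 CPM in NSC to 41.9, 37.5 and 8.82 CPM and Kdr from 1.27 to 5.99, 1.28 and 2.65 CPM in the Astrocyte, Neuron and Oligodendrocyte groups, and their part in the fall of the mitotic genes was not tested.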

How the data were processed

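The authors deposited CPM values (read counts brought to a fixed library total) for 37991 genes in 11 libraries, rounded to 2 decimals, with Ensembl identifiers, symbols and coordinates, per the file headers. The listed genes did not sum to that fixed total. They reached 75.0% to 76.9% of it in NSC and 76.1% to 78.0% in Neuron libraries. In Astrocyte libraries they reached 79.7% to 80.0% and in Oligodendrocyte libraries 80.1% to 80.2%. The part of this difference in the comparisons was not tested. The submitters' processing notes name bcl2fastq 1.8.4, TopHat2 2.0.8, HTSeq 0.6.1, edgeR 3.2.4, R 3.0.0 and HOMER, and build NCBIM37 (mm9), whose coordinates are used for genes. Libraries came from a stranded poly(A) kit, per the labels' protocols, but whether counting used the strand is not given in the sources used here. The denominators, judged from the steps between low values, were 49.3 to 66.2 M (mega) reads, and only 24.4% to 61.5% of low values lay within 0.1 of a whole read, so no count model was run.

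From these values log2(CPM + 1) was fitted with limma 3.58.1 (R 4.3.3; 1 mean per group, all 11 libraries, moderated variances with a trend, 7 residual and 5.96 prior degrees of freedom), for the 13342 genes that reached 1 CPM in 2 libraries or more. Tests were two-sided, p-values were adjusted by Benjamini-Hochberg within each of 6 comparisons over all genes tested, and the fit was tested on simulated data. The 52 genes, the 6 pathway lists and 8 marker lists were chosen with earlier results of these data known. Genes described in every library are, in each role, the gene with the highest NSC mean and those with the lowest and highest mean residual, every gene called higher than NSC, and genes past 2-fold between media. Lengths are union exons of GENCODE M21, and promoters are RefSeq windows (GRCm38.p6), in which 8 members (Ccna2, Spc24, Foxm1, Incenp, Smc4, Tpx2, Aurkb and Cdc25c) had no entry. Alternatives were other pseudocounts, filters and scalings, fits of 2 groups only or with a replicate block, and leaving out each library.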

Additional observations from a re-analysis of the deposited data

Results flagged for a closer look

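Day 4 media differed in their effect against NSC by at least 2-fold, by a direct test (limma, Benjamini-Hochberg), in 5 cases among the 52 genes. Oligodendrocyte exceeded Neuron by 2.27 on the log2(CPM + 1) scale in Spc25 and by 1.16 in Top2a, and the Anln difference was -1.19. Oligodendrocyte exceeded Astrocyte by 1.61 in Spc25, and the Nuf2 difference was -1.49. In each case the libraries of the groups compared did not overlap, which was common among all genes tested. Of those, 49% were higher and 26.7% lower in Oligodendrocyte than in Neuron without overlap. Against Astrocyte the shares were 39.6% and 32.1%. The causes were not tested.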

How the results depend on the processing

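Against NSC, all 52 genes kept their direction and their call under each of the 21 alternatives, as did the 5 differences past 2-fold between media (3381 values in all). Other counts moved. Genes higher by 2-fold in Oligodendrocyte than in Neuron (2) numbered 8 and 5 with pseudocounts of 0.1 and 0.5, 1 with quantile normalization and 1 to 4 with single libraries left out. The 1 gene lower by 2-fold there became 0 with a pseudocount of 5, and the 7 lower became 12 with quantile normalization. Pttg1 was below 2-fold in Oligodendrocyte (count of 0) with a pseudocount of 5, median-of-ratios scaling and quantile normalization, and the count was 0 to 1 with single libraries left out. The 8 lower in Oligodendrocyte than in Astrocyte became 5 with a pseudocount of 5, 5 with no filter on low values and 4 to 11 leaving out libraries, where all calls ran from 9 to 26 and higher calls from 4 to 15. For Astrocyte against Neuron, quantile normalization gave 14 higher, 11 lower and 1 lower by 2-fold, a fit of the 2 groups only gave 3 lower, and leaving out libraries gave 3 to 8 lower and 0 to 1 higher by 2-fold. The cause of these shifts was not tested. Median-of-ratios scaling and quantile normalization put the median residual at 4.28% and 4.00% in Astrocyte and at 4.43% and 4.15% in Oligodendrocyte, where genes with an NSC mean of at least 10 CPM gave 4.78% and single libraries left out gave 4.81% to 5.20%. Median-of-ratios scaling moved the median change of all genes from 0.15 to 0.01 in Astrocyte against NSC and from 0.19 to 0.01 in Oligodendrocyte against NSC.

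Replicate numbers were not shown to pair the libraries. Deviations of same-numbered libraries correlated from -0.505 to 0.415, and those of differently numbered ones from -0.536 to 0.541. The highest value was between NSC replicate 3 and Neuron replicate 2. With 2 or 3 libraries in a group, these correlations cannot exclude pairing or a batch shared across groups. A fit with a replicate block called 52 genes in each comparison with NSC, 31 between Astrocyte and Neuron, 35 between Oligodendrocyte and Neuron and 18 between Oligodendrocyte and Astrocyte, and moved no count by over 1.5 times. With 2 Oligodendrocyte libraries, leaving out 1 assumes that the other varies like the remaining groups. The smallest day 4 value rested on about 14 reads.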
